A study of Mus musculus with 6 samples.

Results

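Expression of 7 transcription factors that drive epithelial-mesenchymal transition (EMT) was compared between 3 control gliomas and 3 gliomas that relapsed after extinction of mutant EGFR. The 7 genes, Snai1, Snai2, Twist1, Twist2, Zeb1, Zeb2 and Prrx1, were taken by name from 19938 genes measured on Affymetrix arrays, and each had 1 probe set. All 6 mouse tumours grew from implants of glioma cells whose driver was mutant EGFR, the epidermal growth factor receptor, under the flank skin of Nu/Nu mice, which lack a thymus. The host tissue around them was therefore not brain. Doxycycline was given in the drinking water at 2 g/L to some animals, and tumours were taken at 2 cm3, but the labels tie the drug to neither group and do not name the form of the receptor. The controls are numbered 1, 2 and 4 and the relapsed tumours 1, 2 and 3. The samples carry distinct titles, but the labels do not say whether the tumours came from separate animals, so p-values measure only the spread between these samples, part of which may be technical.

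EMT is the programme by which epithelial cells loosen their junctions and become migratory. Zinc finger factors of the Snail and ZEB families repress epithelial genes by binding E-boxes in DNA, and the basic helix-loop-helix factors Twist1 and Twist2 and the homeobox factor Prrx1 promote mesenchymal genes. The same factors are active in neural crest, in fibroblasts and, for Zeb2, in glia and macrophages, and in gliomas they are discussed in connection with a mesenchymal state.

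Snai2 and Twist1 rose in relapsed tumours by 4.66-fold and 4.53-fold, while Snai1, Twist2, Zeb1, Zeb2 and Prrx1 did not pass the test. Genes were called at an adjusted p under 0.05 in limma with Benjamini-Hochberg adjustment over all 19938 genes. By that rule 2 of the 7 factors rose and none fell, against 3.69% of all genes that rose, 5.47% that fell and 9.16% called in all. With each array centred on its median, 696 genes rose and 1687 fell in place of 735 and 1091, and the same 2 factors were the only ones called. Groups did not overlap for 4 of the 7 factors, against 30.8% of all genes. The median difference, relapsed minus control, was 0.41 over the 7 factors and -0.019 over all genes on the log2 scale.

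**Figure D1:**
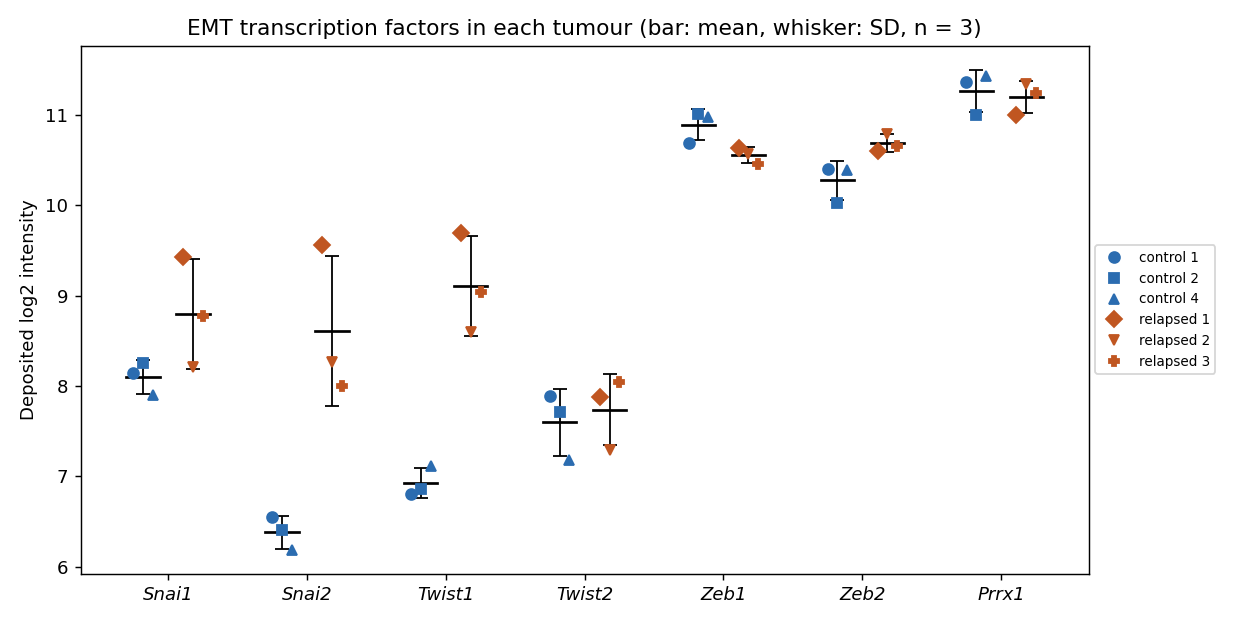
Deposited log2 intensity (vertical axis) of the 7 factors in each control (blue) and relapsed (orange) tumour; thick bars are means and whiskers SD over 3 arrays. Snai2 and Twist1 lie above every control in all 3 relapsed tumours, and levels of different genes are not comparable because each probe set has its own response.

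Among the Snail factors, Snai2 (Slug), a zinc finger repressor of neural crest and mesenchyme, was measured at 6.55, 6.41 and 6.19 in control 1, 2 and 4 and at 9.55, 8.26 and 8.00 in relapsed 1, 2 and 3. The groups were separated by a wide gap, and relapsed 1 stood above the other relapsed tumours. The mean rose to 8.61 ± 0.83 from 6.38 ± 0.18 (SD, n = 3 arrays each), a difference of 2.22 ± 0.42 (SE, 95% interval 1.17 to 3.27; adjusted p = 0.0371 in limma). Without relapsed 1 the difference was 1.75, with an adjusted p of 0.0275. Leaving out any other single array ended the call, with limma adjusted p of 0.0687 to 0.121 and differences of 2.12 to 2.52.

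Snai1, the founding mouse Snail gene and a direct repressor of E-cadherin, behaved less uniformly. Its levels were 8.15, 8.26 and 7.90 in control 1, 2 and 4 and 9.42, 8.21 and 8.77 in relapsed 1, 2 and 3. Relapsed 2 lay within the range of the controls, and relapsed 1 was again the highest. The difference of 0.70 ± 0.32 (SE) had a 95% interval from -0.09 to 1.49 and did not pass (adjusted p = 0.234 in limma). Snai3, a further Snail gene chosen after its value was seen, differed by -0.12 ± 0.07 with an adjusted p of 0.316 in limma.

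Twist1, a basic helix-loop-helix factor of mesoderm and cranial mesenchyme, was measured at 6.80, 6.86 and 7.11 in control 1, 2 and 4. In relapsed 1, 2 and 3 it stood at 9.69, 8.59 and 9.04. Every relapsed tumour exceeded every control, with relapsed 1 at the top. The mean rose to 9.11 ± 0.55 from 6.93 ± 0.16 (SD, n = 3), by 2.18 ± 0.29 (SE, 95% interval 1.47 to 2.89; adjusted p = 0.0181 in limma). The call held without relapsed 1 (difference 1.89, adjusted p = 0.0293 in limma) and without relapsed 2 (2.44, adjusted p = 0.0391). It was lost without relapsed 3 or without control 1, 2 or 4, at limma adjusted p of 0.0583 to 0.0667.

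Twist2, the close paralogue of Twist1 that is prominent in dermal fibroblasts, was measured at 7.89, 7.72 and 7.19 in control 1, 2 and 4 and at 7.88, 7.29 and 8.04 in relapsed 1, 2 and 3. The groups overlapped almost fully. The difference was 0.14 ± 0.27 (SE, 95% interval -0.53 to 0.81; adjusted p = 0.784 in limma). Its sign turned without control 4 (-0.064) and without relapsed 3 (-0.011).

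The ZEB factors differed in opposite directions by small amounts, and neither passed the test. Zeb1, a zinc finger repressor of epithelial genes, was measured at 10.69, 11.00 and 10.97 in control 1, 2 and 4 and at 10.63, 10.56 and 10.46 in relapsed 1, 2 and 3. All relapsed values lay below all controls, although relapsed 1 and control 1 nearly met. The difference was -0.34 ± 0.11 (SE), with an adjusted p of 0.113 in limma. Zeb2, its paralogue, which is also needed in oligodendrocyte development and in macrophages, was measured at 10.40, 10.03 and 10.39 in control 1, 2 and 4 and at 10.60, 10.79 and 10.66 in relapsed 1, 2 and 3. Here all relapsed values lay above all controls. The difference was 0.41 ± 0.12, with an adjusted p of 0.106 in limma. Over the alternatives the limma adjusted p ran from 0.0648 to 0.680 for Zeb1 and from 0.0770 to 0.573 for Zeb2, and the sign of each held in all 13.

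ZEB messages are classic targets of the miR-200 family, which the ZEB factors repress in turn. The mature forms are shown because their seeds, bases 2 to 8 in capitals, split the family into 2 groups that differ at a single base. Sequences are RefSeq records of build GRCm38.p6, 5′ to 3′, and all 5 genes of the family had a sequence record.
mmu-miR-200b-3p: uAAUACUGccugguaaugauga
mmu-miR-200c-3p: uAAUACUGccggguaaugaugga
mmu-miR-429-3p: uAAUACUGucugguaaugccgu
mmu-miR-200a-3p: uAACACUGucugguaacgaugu
mmu-miR-141-3p: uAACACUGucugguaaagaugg

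The first 3 share the seed AAUACUG and the last 2 the seed AACACUG. The probe sets of these genes read the region of the miRNA gene, not the mature miRNA. Mir429 was not measured here, because its probe set is shared by several genes. The 5 measured genes of the miR-200 and miR-205 list were Mir200a, Mir200b, Mir200c, Mir141 and Mir205. Of these 5 none was called, and none had an unadjusted p under 0.05 in limma. Mir200c differed by 0.13 ± 0.09 and Mir205, of a separate family that also targets ZEB messages, by -0.05 ± 0.05, with limma adjusted p of 0.424 and 0.631. Mean levels of 4 of the 5 were under 5.65, the median over probe sets to which the annotation gives no gene. Mir141 had the identical value of 3.80 on all 6 arrays, and each of the other 4 repeated a value on at least 2 arrays, as did 38.9% of all genes. Identical values on all 6 arrays were found for 65 of the 19938 genes.

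Prrx1, a homeobox factor of limb and craniofacial mesenchyme, was measured at 11.36, 11.00 and 11.43 in control 1, 2 and 4 and at 11.00, 11.34 and 11.24 in relapsed 1, 2 and 3. No group was set apart, and control 2 and relapsed 1 were the lowest. The difference was -0.07 ± 0.15 (SE, 95% interval -0.44 to 0.30; adjusted p = 0.807 in limma), and its sign turned without control 4 (0.013) or relapsed 1 (0.026). Its paralogue Prrx2, chosen after its value was seen, was higher in each relapsed tumour than in each control, by 0.74 ± 0.29, but did not pass (adjusted p = 0.179 in limma).

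Paralogues were then compared within each array, which asks whether the members of a pair differed between the groups by unequal amounts. The difference of Snai2 exceeded that of Snai1 by 1.52 on the log2 scale, and that of Twist1 exceeded that of Twist2 by 2.04. For Zeb1 and Zeb2 the value was -0.75. In each of the 3 pairs the within-array differences of the relapsed and control tumours did not overlap, and the exact permutation test gave p = 0.1, the smallest that 20 assignments of 3 against 3 arrays allow, also p = 0.1 after Benjamini-Hochberg adjustment over the 3 pairs. The design cannot reach 0.05 by this test. For Snai2 and Snai1 the centred within-array difference was -0.64, -0.89 and -0.75 in control 1, 2 and 4 and 1.09, 1.01 and 0.19 in relapsed 1, 2 and 3. Relapsed 3 was thus the tumour in which these paralogues were least apart from the controls.

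After each gene was centred on its mean, Snai2 and Twist1 differed across arrays by a root mean square of 0.34. It was 0.82 for Snai2 and Snai1 and 1.09 for Twist1 and Twist2. This measure takes in the group difference, which was 2.22 and 2.18 for Snai2 and Twist1, 0.70 for Snai1 and 0.14 for Twist2. It is therefore no evidence of likeness beyond that difference. Zeb2 and Prrx1 (0.25) and Zeb1 and Prrx1 (0.28), which varied little, lay closer. Snai2 and Twist1 were both highest in relapsed 1, but the next was relapsed 2 for Snai2 and relapsed 3 for Twist1. By the same measure over 6 arrays, the genes nearest to Snai2 were Clec4a2, a C-type lectin receptor of myeloid cells, at 0.24, Cxcl12, the chemokine of stromal cells, at 0.25, and Dpt, which encodes the matrix protein dermatopontin, at 0.25. Nearest to Twist1 were Clec4a2 at 0.16, Hpgds, a prostaglandin D synthase of haematopoietic cells, at 0.18, and Serpinb6b at 0.21. All these genes near Snai2 or Twist1 rose themselves, by 2.04 to 2.52. Nearness takes in the group difference, so this was largely fixed by the choice. Nearest to Snai1 were Ankrd29 at 0.11, A4galt, a glycosyltransferase, at 0.11 and Nkd2, a Wnt pathway inhibitor, at 0.12. The other 4 factors varied over less than 1 on the log2 scale, too little for this comparison.

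**Figure D2:**
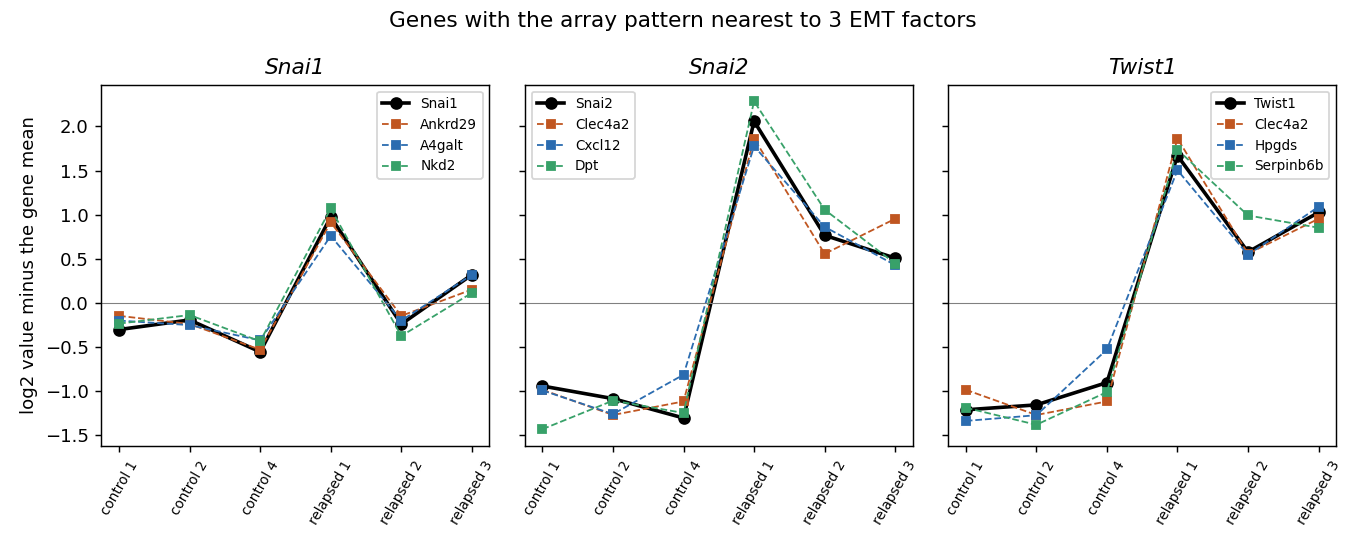
Centred log2 value, with each gene's mean taken off (vertical axis), in each tumour (horizontal axis) for Snai1, Snai2 and Twist1 (black) and the 3 genes nearest to each (dashed). Clec4a2 is among the nearest for both Snai2 and Twist1. All lines peak in relapsed 1, as the choice of genes by nearness favours.

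Markers of several cell types also differed between the groups. In bulk samples fewer cells of a type and less RNA per cell cannot be told apart. List scores, which average a list's log2 values after each gene is centred on its mean, ran from -0.86 to -0.37 in controls and from 0.19 to 1.08 in relapsed tumours for 15 fibroblast markers, of which 8 rose and none fell. For 18 macrophage and microglia markers they ran from -0.88 to -0.57 and from 0.50 to 1.01, with 13 risen and none fallen. Scores of 14 glioma and neural progenitor markers ran from 0.41 to 1.02 in controls and from -0.74 to -0.65 in relapsed tumours, with 8 fallen and none risen. Over all genes 3.69% rose and 5.47% fell. Some markers went the other way: 3 fibroblast markers had a lower mean in relapsed tumours and 3 glioma and neural progenitor markers a higher one. No macrophage and microglia marker had a lower mean. The defining markers Col1a1, Ptprc and Olig2 had means of 11.48, 8.14 and 10.84 in controls and 12.61, 10.01 and 7.29 in relapsed tumours. Olig2 lay at the low end of its list, whose 14 markers differed by -3.54 to 0.64 with a median of -1.46. Whether a marker was detected at all was not tested.

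Relapsed 1, which had the highest Snai1, Snai2 and Twist1, also had the highest scores for fibroblast (1.08), macrophage (1.01), pericyte (0.72) and adipocyte markers (2.30, against -0.70 to -0.24 elsewhere). In relapsed 2 and 3 the fibroblast score was 0.37 and 0.19, the macrophage score 0.50 and 0.52, the pericyte score -0.10 and -0.17 and the adipocyte score -0.57 and -0.24. The part of these cells in the rise of Snai2 and Twist1 was not tested. Control 2 had a skeletal muscle score of 1.73 (-0.62 to 0.10 elsewhere) and relapsed 3 a keratinocyte score of 1.41 (-0.38 to -0.19 elsewhere). Scores of 14 endothelial markers were 0.04 to 0.32 in controls and -0.29 to -0.07 in relapsed tumours.

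**Figure D3:**
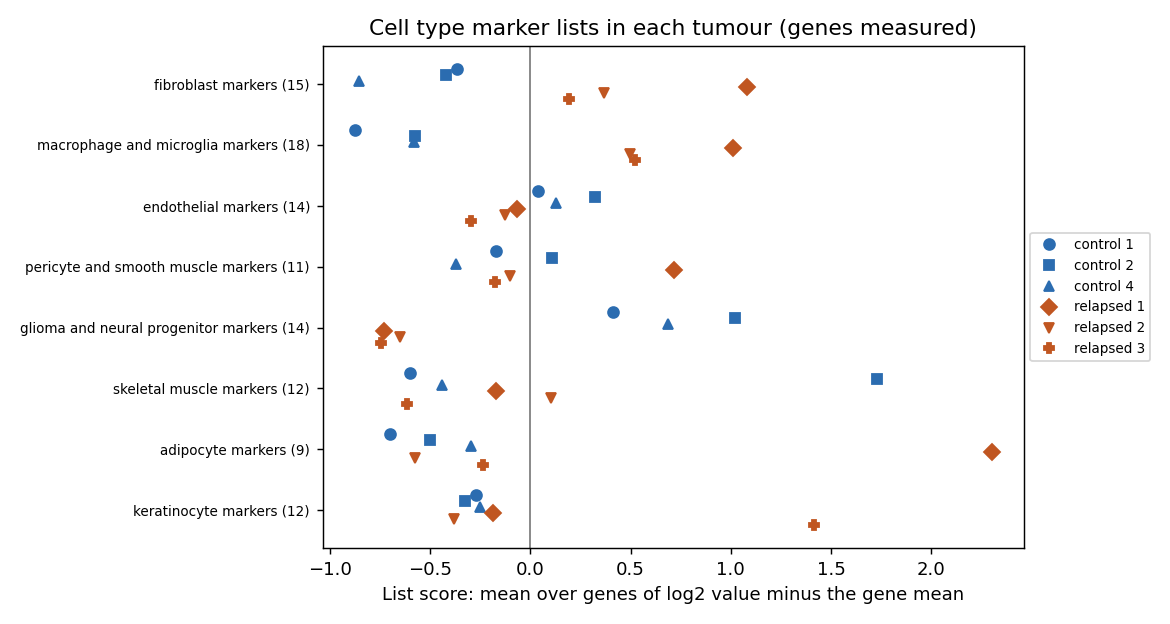
List score (horizontal axis, log2 units) of 8 cell type marker lists in each control (blue) and relapsed (orange) tumour, with the number of genes measured in brackets. Fibroblast and macrophage scores of the relapsed tumours all lie above those of the controls, and relapsed 1 stands apart in adipocyte markers, control 2 in skeletal muscle and relapsed 3 in keratinocyte markers.

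In 3 lists of genes around these factors, 6 genes fell and none rose. The lists are other transcription factors linked to EMT, corepressors and Id proteins, and regulators of protein stability, with 22, 15 and 13 genes measured. Over all genes too, more fell (5.47%) than rose (3.69%), and 10980 of 19938 had a lower mean. Of 22 measured other transcription factors linked to EMT, 4 fell and none rose, 15 had a lower mean in relapsed tumours, and the median difference was -0.16. Tcf3 and Tcf12, E proteins that pair with Twist factors to bind E-boxes, fell by 0.57 ± 0.07 and 0.44 ± 0.07 (limma adjusted p of 0.0177 and 0.0272), while a further E protein, Tcf4, chosen after its value was seen, differed by -0.14 ± 0.07. Tead2, a DNA-binding partner of YAP, fell by 0.93 ± 0.07 from 10.77 to 9.84 (adjusted p = 0.00777 in limma), and Sox9 fell by 0.66 ± 0.11. Among 15 corepressors and Id proteins, which sequester E proteins, only Hdac1, a histone deacetylase recruited by Snail factors, was called, with a fall of 0.53 ± 0.11 and an adjusted p of 0.0423 in limma. Among 13 regulators of the stability of these proteins, only Trim28 was called, with a fall of 0.62 ± 0.12 (adjusted p = 0.0374 in limma). With 1 array left out, none of the 6 fits kept the calls of Tcf12, Sox9 and Trim28, and 1 kept that of Tcf3 and 1 that of Hdac1. With all probe sets tested, Hdac1 and Trim28 missed the threshold (0.0592 and 0.0527 in limma). Scores of glioma and neural progenitor markers were lower in the same tumours, and their part in these falls was not tested.

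The ligand gene Tgfb1 and 3 TGF-beta receptor genes rose; this pathway is a well known inducer of Snail and ZEB genes. Of 22 measured upstream signals 5 rose and 1 fell, against 3.69% and 5.47% of all genes. The other ligand genes Tgfb2 and Tgfb3, chosen after their values were seen, overlapped between the groups and did not pass (differences of 0.29 and 0.08, limma adjusted p of 0.204 and 0.804). Of the signal transducers Smad2, Smad3, Smad4 and Smad7 none passed. Smad3, likewise chosen, was lower in every relapsed tumour, by a difference of -0.41 with an adjusted p of 0.0756 in limma. Tgfb1, the ligand, was measured at 8.94, 9.17 and 8.96 in control 1, 2 and 4 and at 9.94, 9.66 and 9.70 in relapsed 1, 2 and 3, without overlap, and rose by 0.74 ± 0.11 (adjusted p = 0.0204 in limma). Tgfbr1 and Tgfbr2, the signalling receptors, rose by 1.12 ± 0.23 and 0.76 ± 0.15, and the co-receptor Tgfbr3 by 0.89 ± 0.17, with limma adjusted p of 0.0424, 0.0391 and 0.0395. With all probe sets tested the receptor genes missed the threshold (0.0586, 0.0544 and 0.0546 in limma), and with any 1 array left out Tgfbr1 and Tgfbr3 did too, at limma adjusted p of 0.0659 to 0.126. Tgfbr2 then kept the call only without relapsed 2, and Tgfb1 only without control 2 or relapsed 1. Notch2 rose by 0.87 ± 0.16 and Stat3, a relay of cytokine signals, fell by 0.53 ± 0.08 (adjusted p of 0.0340 and 0.0247 in limma). Scores of fibroblast and macrophage markers, whose cells also express this ligand and its receptors, were higher in the same tumours, and their part was not tested.

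Of 28 measured epithelial genes that are repressed in EMT, 1 rose and none fell, shares near the 3.69% and 5.47% of all genes. No gene had an unadjusted p under 0.05 on the lower side. A higher mean in relapsed tumours was found for 24 of the 28, against 8958 of 19938 genes, with a median difference of 0.14. In several of them relapsed 1 alone was high: the keratin genes Krt8, Krt18 and Krt19, chosen after their values were seen, stood at 9.07, 8.01 and 8.83 there and at 7.41, 6.68 and 5.78 at most in relapsed 2 and 3. Cldn1, the tight junction gene for claudin-1, was measured at 7.15, 6.74 and 7.61 in control 1, 2 and 4 and at 10.51, 9.42 and 9.72 in relapsed 1, 2 and 3, far above every control. It rose by 2.72 ± 0.35 with an adjusted p of 0.0177 in limma. Cdh1, which encodes E-cadherin, was measured at 6.69, 6.26 and 6.77 in control 1, 2 and 4 and at 7.62, 6.97 and 7.54 in relapsed 1, 2 and 3, without overlap, but its difference of 0.81 ± 0.22 did not pass (adjusted p = 0.0870 in limma). Mean levels of 9 of the 28 were under 5.65, near the dim end of the arrays, where a fall would be hard to read. Most of the 28 lay below 7.39, the median of the mean levels of all genes. A value was repeated on at least 2 arrays for 15 of the 28 (53.6%), against 38.9% of all genes. For such dim genes small differences in either direction say little. Relapsed 3, with the high keratinocyte score, had a higher level of Dsp, a desmosome gene of both lists, at 7.71 against 5.51 in each of relapsed 1, relapsed 2, control 2 and control 4.

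Promoters of the factors and of these epithelial genes were searched for the E-box CACCTG, the same site as CAGGTG on the other strand, to which Snail and ZEB factors bind. Windows of 300 bases, from 250 before to 50 after each RefSeq start site of build GRCm38.p6, held it for 22.6% of 27025 genes, taking any start site of a gene. Windows were at hand for 18 of the 28 epithelial genes, and 15 of these (83.3%) held it, against 1 of 17 mesenchymal genes (5.88%) and 1 of 5 factors, namely Snai1. The 15 epithelial genes with the site differed between the groups by -0.13 to 0.97, with a median of 0.16, and none was called. The 3 without it, Cldn1 among them, differed by -0.12 to 2.72, with a median of 0.05, and 1 rose. A higher mean in relapsed tumours was found for 12 of the 15 and 2 of the 3. Over all genes 3.69% rose. Whether the site went with the difference was not tested. The 250 bases before the start are shown for Snai1, the factor with the site, for Crb3, an epithelial polarity gene with the most copies, and for Cldn1, the epithelial gene that rose. Capitals mark CACCTG and CAGGTG in Snai1 and Crb3, and in Cldn1 the 2 sites of the broader form CANNTG, which includes both and which 75% of genes held in these windows.
Snai1, chr2:167537945-167538194, + strand: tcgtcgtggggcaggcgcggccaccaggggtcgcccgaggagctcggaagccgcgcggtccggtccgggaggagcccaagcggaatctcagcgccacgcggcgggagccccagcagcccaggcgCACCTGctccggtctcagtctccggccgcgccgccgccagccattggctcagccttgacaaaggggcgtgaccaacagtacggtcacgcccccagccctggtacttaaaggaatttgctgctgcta
Crb3, chr17:57061951-57062200, + strand: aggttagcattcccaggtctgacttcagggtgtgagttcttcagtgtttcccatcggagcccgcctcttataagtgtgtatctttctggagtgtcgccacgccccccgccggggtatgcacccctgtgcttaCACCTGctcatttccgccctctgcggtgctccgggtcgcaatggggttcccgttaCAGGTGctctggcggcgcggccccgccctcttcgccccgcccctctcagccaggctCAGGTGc
Cldn1, chr16:26371840-26372089, - strand: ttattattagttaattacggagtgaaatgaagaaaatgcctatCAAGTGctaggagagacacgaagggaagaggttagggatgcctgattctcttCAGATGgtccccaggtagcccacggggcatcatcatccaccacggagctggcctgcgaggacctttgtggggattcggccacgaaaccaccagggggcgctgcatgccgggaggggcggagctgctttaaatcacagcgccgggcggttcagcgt

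The site of Snai1 begins 126 bases before its start, and 3 of the 4 copies of Crb3 begin 118, 63 and 7 bases before, while the other is not within the printed stretch. Those of Cldn1, CAAGTG and CAGATG, begin 207 and 155 bases before. Crb3 itself differed by 0.08 between the groups. A match describes the letters only, and windows further from the start were not searched.

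Mesenchymal genes that are induced in EMT mostly had a higher mean in relapsed tumours. Of 27 measured, 8 rose and 1 fell, against 3.69% and 5.47% of all genes, and 18 were not called. A higher mean in relapsed tumours was found for 23 of the 27, against 8958 of 19938 genes. The median difference was 0.82, against -0.019 over all genes. Cdh11, a mesenchymal cadherin, rose by 1.64 ± 0.28, from 9.40 to 11.05, and Postn, which encodes the matrix protein periostin, by 1.53 ± 0.25. The collagen genes Col6a3, Col1a2, Col5a2 and Col3a1 rose by 1.63 ± 0.22, 1.48 ± 0.31, 1.38 ± 0.24 and 1.19 ± 0.15. For these 6 genes the limma adjusted p lay between 0.0170 and 0.0467. Fn1, which encodes fibronectin, rose by 0.34 ± 0.06 (adjusted p = 0.0330 in limma), a call kept under 4 of 13 alternatives. It was lost with array medians centred (0.27, adjusted p = 0.0627), with the dimmer 50% of genes left out (0.0507 in limma), with the replicate block (0.515) and in every fit that left out 1 array.

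N-cadherin and vimentin, often used to define EMT, were not higher. Cdh2, which encodes N-cadherin and is also expressed by neural cells, was measured at 11.69, 11.68 and 11.56 in control 1, 2 and 4 and at 10.47, 10.95 and 10.84 in relapsed 1, 2 and 3, and fell by 0.89 ± 0.14 (adjusted p = 0.0242 in limma). Vim, which encodes vimentin, stood at 13.52 ± 0.05 and 13.46 ± 0.03 (SD, n = 3), a difference of -0.07 with an adjusted p of 0.499 in limma. Of the 27 mesenchymal genes 4 are also fibroblast markers here, and 3 are pericyte and smooth muscle markers. The fibroblast score was higher by 1.09 in the same tumours, and its part in these rises was not tested.

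**Figure D4:**
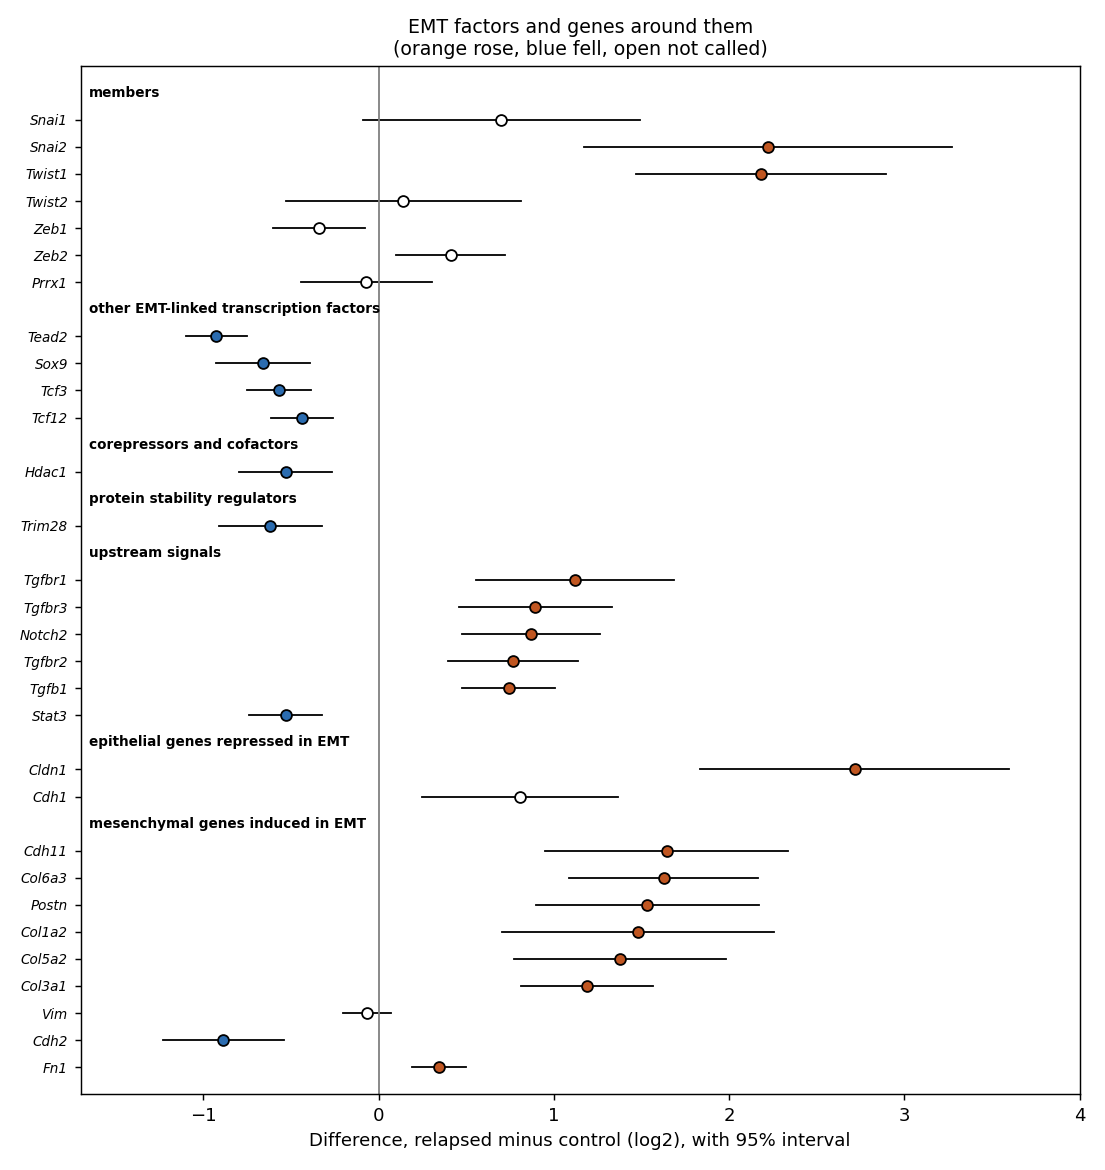
Difference between relapsed and control tumours on the log2 scale (horizontal axis) with its 95% interval from limma, for the 7 factors and for genes of 6 lists around them; orange rose, blue fell and open points were not called. Snai2, Twist1 and Cldn1 lie beyond 2, Tgfb1, its 3 receptor genes and collagens are higher, and Tcf3, Tcf12, Tead2 and Cdh2 are lower.

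Of the 22 genes called in these lists, Tead2 alone kept the call in every fit that left out 1 array. For 8 genes none of these fits kept it, and for 13 some did. Without control 1, 2 or 4 the lists held 6, 4 and 1 called genes, and without relapsed 1, 2 or 3 they held 6, 4 and 4.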

How the data were processed

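Per the labels, total RNA of each tumour was hybridised to 1 Affymetrix array, from 5 ug. The deposited values are log2 intensities per probe set. No header states the scale, which was taken from the range of the values. Per the submitters' processing notes affy was used, with no version. How background was corrected, arrays were normalized and probes were summarized is not given in the sources used here. Array medians were 6.58 to 6.68 and the number of arrays limits the precision. Any between-array normalization would hide a change shared by most transcripts.

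Values were used as deposited. Of 35556 probe sets, 21789 with 1 gene symbol in the platform annotation gave 19938 genes, the highest-mean probe set standing for each. Relapsed was tested against control with limma 3.58.1 (R 4.3.3; lmFit and eBayes, 4 residual degrees of freedom, two-sided, Benjamini-Hochberg over all genes). SE and 95% intervals are limma's. Paralogue pairs used exact permutation.

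The members, gene lists and alternatives were chosen with earlier results of these data known. Of 244 listed genes 234 were measured. Named were all factors, up to 6 called genes of a list (or the 2 with the smallest p), Cdh1, Cdh2, Vim and Fn1, the first markers of a cell type, and the 3 genes nearest to each factor with a range of at least 1. Alternatives were leaving out the dimmer 50% of genes, quantile normalization, median centring, probe set means, all probe sets, an intensity trend, the replicate number as a block, and each array left out. Promoter and miRNA sequences are RefSeq's. Promoters of Snai2, Zeb1 and Cdh1 and protein sequences were not used here.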

Additional observations from a re-analysis of the deposited data

How the results depend on the processing

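Snai2 and Twist1 were higher in relapsed tumours under all 13 alternatives, by 1.75 to 2.52 and by 1.89 to 2.44. Both were called with the dimmer 50% of genes left out, quantile normalization, median centring, probe set means and an intensity trend. With all probe sets tested, Snai2 missed the threshold (2.22, adjusted p = 0.0512 in limma) and 1 of the 7 factors was called. Leaving out 1 array each gave 264 to 975 called genes, 0 to 2 called factors and 1 to 6 called genes of the 6 lists and the miRNA list around them, in place of 1826, 2 and 22. In those fits, which have fewer samples, Snai2 ran from 1.75 to 2.52, Twist1 from 1.89 to 2.44, Twist2 from -0.064 to 0.37 and Prrx1 from -0.20 to 0.026. Where limma called 0 factors in these fits, without control 1, 2 or 4 or relapsed 3, there were 3 or 4 that had an unadjusted p under 0.05. The same cut was passed by 4313 to 4518 of all 19938 genes in the fits without these arrays.

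The groups share only the numbers 1 and 2, and deviations from the group means of same-numbered arrays correlated at -0.34 and -0.25 over genes, so the numbers were not taken to pair the samples. With the replicate number as a block, 1 residual degree of freedom was left and limma called 0 genes and 0 factors (2199 genes and 2 factors at an unadjusted p under 0.05). Under that replicate block Snai2 differed by 2.43 and Twist1 by 2.31 (adjusted p of 0.395 and 0.401), and Twist2 by -0.22.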
